A study of Mus musculus with 8 samples.

Results

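The genes described here encode voltage-gated potassium channels and their subunits. They were taken as the protein-coding rows of the deposited table whose symbol begins with Kcna, Kcnab, Kcnb, Kcnc, Kcnd, Kcne, Kcnf, Kcng, Kcnh, Kcnip, Kcnq, Kcns or Kcnv followed by a digit, which gave 47 of 21649 genes. That rule uses the symbol and the gene type only, but it was set with earlier results of these data known. The 47 comprised 27 genes for pore-forming subunits (6 Kv1, 2 Kv2, 4 Kv3, 3 Kv4, 5 Kv7 and 7 of the EAG, ERG and ELK branches), 8 for electrically silent subunits, 3 for Kv beta subunits, 4 for KChIPs and 5 for KCNE subunits. Kcnq1ot1 and Kcnd3os also matched the symbols but are long non-coding RNAs and were left out. Kcna7, Kcna10, Kcng3, Kcnh4 and Kcns2 were not analysed here.

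RNA sequencing had been carried out on lung (2 libraries), intestine (3 libraries) and bladder (3 libraries) cells that were sorted by fluorescence and are labelled non-vascular smooth muscle cells, meaning smooth muscle that does not belong to blood vessels. The mice of all 3 groups carried Cspg4-Dre, Acta2-CreERT and R26-GFP, and all had been given tamoxifen (0.75 mg for each 10 g of body weight on 3 days, given into the peritoneum from a corn oil solution of 20 mg/mL). Both Dre and Cre recombine DNA, Cspg4 is a gene of mural cells, Acta2 is the smooth muscle actin gene, and tamoxifen switches on the CreERT protein. There was no other genotype and no group without tamoxifen, so the comparisons are between organs. Neither age nor sex is stated. The labels do not say whether the libraries of a tissue are from different mice, and p-values cover the spread between libraries, which may be technical.

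Voltage-gated potassium channels open when the membrane is depolarised and let potassium out, which returns the cell to a negative potential and limits calcium entry through voltage-gated calcium channels. In smooth muscle they set the resting potential and shape slow waves and action potentials, and so tone and contraction. A channel is a ring of pore-forming subunits of 1 family. Silent subunits join Kv2 subunits but make no channel of their own, and Kv beta, KChIP and KCNE subunits attach to the pore and change its gating or its traffic to the surface.

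Depth was 9.72 to 13.6 M reads per library, as reconstructed from the spacing of the deposited values, and a count of 0 allows an expected level of up to 3 reads (counting error only). All 11 smooth muscle markers were detected in every tissue, and their summed level was 3393 to 3633 ppm of all normalized counts in lung, 3172 to 3420 ppm in intestine and 1742 to 2126 ppm in bladder. The libraries also held markers of other cells. The 10 general epithelial markers summed to 67.6 to 110.5 ppm in lung, 1590 to 1694 ppm in intestine and 350 to 568 ppm in bladder. Libraries labelled intestine held all 8 stomach gland markers in the table, at 1294 to 1349 ppm, against 15.1 to 31.6 ppm in lung and 34.7 to 73.9 ppm in bladder. The 14 enteric neuron markers summed to 84.1 to 139.7 ppm in lung, 797 to 874 ppm in intestine and 73.5 to 88.8 ppm in bladder. Mural cell markers were at 1788 to 2068 ppm in lung, 2106 to 2241 ppm in intestine and 764 to 797 ppm in bladder, and cardiomyocyte markers at 475 to 566 ppm in lung, 51.7 to 65.4 ppm in intestine and 45.8 to 58.3 ppm in bladder. Fibroblast markers were at 3318 to 3761 ppm in lung, 4220 to 4500 ppm in intestine and 5694 to 6288 ppm in bladder, and the 8 urothelial markers at 16.2 to 32.8 ppm in lung, 62.4 to 68.0 ppm in intestine and 557 to 762 ppm in bladder. The 14 leukocyte markers summed to 173 to 179 ppm in lung, 152 to 174 ppm in intestine and 249.3 to 433 ppm in bladder, where Cd3e, Cd3g, Ms4a1 and Nkg7 were at 0. The part of such cells in the potassium channel values was not tested unless a measurement is given beside the value, and in sorted bulk samples fewer cells of a type and less RNA per cell cannot be told apart.

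Summed over all genes of the group, transcripts of voltage-gated potassium channels were most abundant in intestine, intermediate in lung and lowest in bladder. Together the 47 genes made up 876 to 1147 ppm of normalized counts in lung, 1422 to 1542 ppm in intestine and 388 to 438 ppm in bladder, and the ranges did not overlap. Counted per length (reads per kilobase of exon per M reads, RPKM), the 27 pore-forming genes summed to 129 to 166 RPKM in lung, 192 to 206 RPKM in intestine and 24.9 to 30.0 RPKM in bladder. The Kv1 and Kv7 sums kept that order, but not every family did. Kv4 genes averaged 5.34 RPKM in bladder, 3.93 in intestine and 2.97 in lung. The EAG, ERG and ELK branch averaged 55.0 RPKM in lung, 30.5 in intestine and 7.46 in bladder. In lung, Kcnh2, the ERG1 channel of the rapid delayed rectifier current of the heart, made up 36.6% of that sum, and Kcna5, a delayed rectifier of heart and vascular muscle, 33.4%. In intestine Kcna5 led with 45.1%, followed by Kcnq1 with 18.3% and Kcnh2 with 14.2%. Bladder had no leading gene of that size: Kcnh2 made up 22.6%, the Kv4 gene Kcnd1 16.9% and Kcna5 9.60%.

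**Figure D1:**
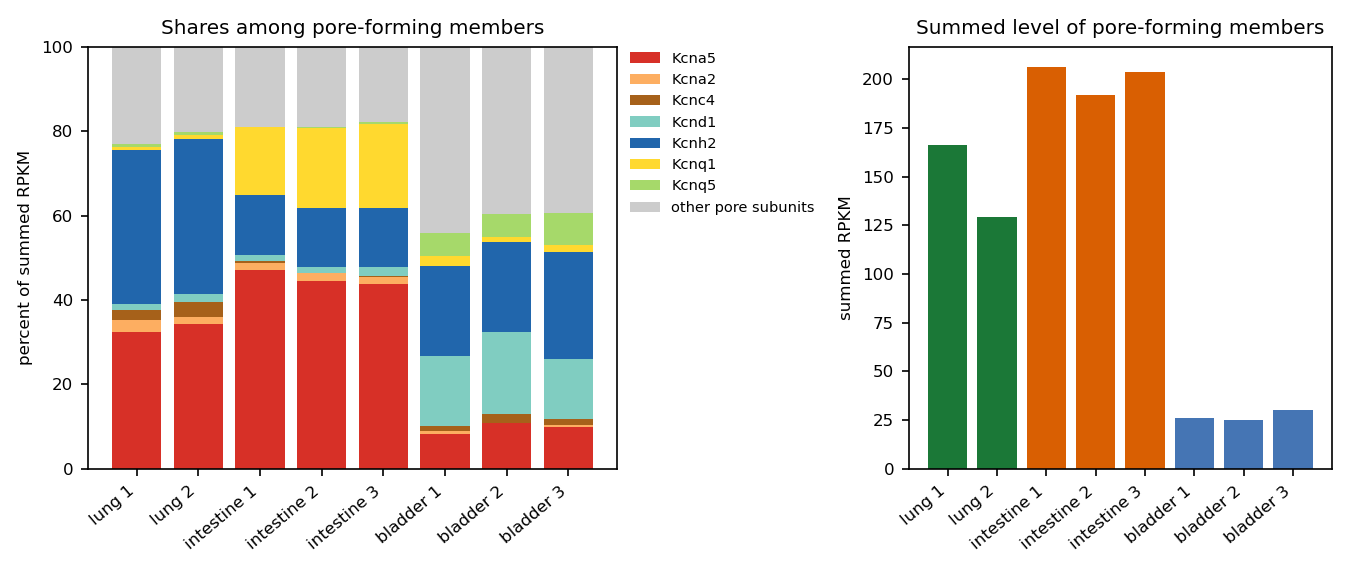
Share of the summed RPKM of the 27 pore-forming genes taken by each of 7 genes and by all others together (stacked bars, percent) and the summed RPKM itself (bars), per library, with lung, intestine and bladder from left to right. Kcnh2 and Kcna5 made up 36.6% and 33.4% of the sum in lung, Kcna5 45.1% in intestine, and no gene more than 22.6% on average in bladder.

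Stretches before a transcription start of Kcna5 and of Kcnh2 are shown because these genes carried the largest pore-forming levels in intestine and lung. Each gives the 250 bases before 1 RefSeq start, on the gene's own strand, on GRCm38.p6. They lie at chr6:126535556-126535805 (minus strand) for Kcna5 and at chr5:24329592-24329841 (minus strand) for Kcnh2. A gene can have more than 1 start, so the start shown need not be the outermost and can lie inside the gene. Which start the sorted cells used was not tested. Capitals mark TGGGAA or its reverse complement TTCCCA, the core recognised by the Notch effector RBPJ.
Kcna5: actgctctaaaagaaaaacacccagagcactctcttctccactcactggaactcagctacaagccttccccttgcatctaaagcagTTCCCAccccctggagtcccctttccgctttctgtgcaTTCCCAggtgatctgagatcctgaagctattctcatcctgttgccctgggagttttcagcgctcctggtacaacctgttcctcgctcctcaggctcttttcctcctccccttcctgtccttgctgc
Kcnh2: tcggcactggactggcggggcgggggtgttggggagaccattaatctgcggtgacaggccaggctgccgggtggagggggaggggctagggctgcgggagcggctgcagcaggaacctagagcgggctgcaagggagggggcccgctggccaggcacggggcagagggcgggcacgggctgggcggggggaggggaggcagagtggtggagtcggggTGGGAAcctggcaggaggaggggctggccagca
RefSeq promoter windows of 300 bases (250 before to 50 after the start) were on hand for 31 of the 47 genes, with 47 windows in all. On either strand, TGGGAA was in 12 of the 47 windows (25.5%), against 25.6% of all 32851 mouse windows. The CArG box, which serum response factor binds, was in 0 of 47, against 1.63% of all windows. TATAAA was in 1 of 47 (2.13%), a window of Kcnab1 with the match on the minus strand after the start, against 13.6% of all windows. A CArG box can contain TATAAA, so the shares of those motifs can overlap, and a match is a description of letters only.

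Of the 47 genes, 40 passed the filter on low values (a normalized count of at least 10 in at least 2 libraries) and were tested over all 18097 such genes with limma on log2(value + 1), with Benjamini-Hochberg adjustment and an adjusted p under 0.05 as the threshold. The remaining 7 (Kcna4, Kcnc1, Kcnh5, Kcnh7, Kcnq3, Kcns1 and Kcnv2) were not tested. Of the 40, 5 passed the filter through the intestine libraries alone, among them Kcne2, Kcnh6, Kcnh8 and Kcnip2, so their place in the counts rests on being higher there. Between intestine and bladder, 22 genes were higher in intestine, where 28.7% of all genes tested were higher, 4 were lower (23.3% of all genes tested) and 14 did not pass, so that 26 passed in either direction, against 51.9% of all genes. Between lung and bladder, 11 were higher in lung (19.2% of all genes tested), 7 were lower (21.8%) and 22 did not pass, so that 18 passed in either direction, against 41% of all genes. Between lung and intestine, 6 were higher in lung (15.9% of all genes tested), 20 were lower (23.6%) and 14 did not pass, so that 26 passed in either direction, against 39.5% of all genes. The 3 pairs share libraries and are not independent of each other.

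The median log2 difference over the 40 genes was 1.40 for intestine minus bladder (0.06 over all genes tested), -0.10 for lung minus bladder (0.00 over all genes) and -1.06 for lung minus intestine (-0.04 over all genes). The split of calls moved with the scaling. Quantile normalization gave 15 higher and 10 lower for intestine minus bladder and 8 higher and 14 lower for lung minus intestine. Undoing the deposited scaling left reconstructed reads without any correction for depth. It moved the median of all genes to 0.46 for intestine minus bladder and to 0.48 for lung minus bladder. The counts were then 23 higher and 3 lower for intestine minus bladder and 14 higher and 6 lower for lung minus bladder. Libraries did not overlap for 30 of the 40 genes between intestine and bladder (63.4% of all genes), for 26 between lung and bladder (58.1%) and for 30 between lung and intestine (58.6%).

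A difference among the 3 tissues passed limma's F test for 33 of the 40 genes, against 62.9% of all genes tested. Of the 40 genes, 11 were higher in intestine than in both other tissues (12.5% of all genes tested), among them Kcna5, Kcnab1, Kcne3, Kcne4, Kcng4, Kcnh6, Kcnip1, Kcnip2 and Kcnq1. Enteric neuron, glial, epithelial and endothelial markers moved with these genes: 14 of 14, 8 of 8, 9 of 10 (general epithelium) and 9 of 10 exceeded bladder in intestine, and 13, 7, 10 and 6 of them were lower in lung than in intestine; their part was not tested. That count of 11 was 7 without the intensity trend, and it was 6 without intestine library 1 and 5 without intestine library 3. Kcnc4, Kcnh2 and Kcns3 were higher in lung than in both other tissues (3.06% of all genes tested), and with them moved the lung epithelial markers, of which 9 of 10 were higher in lung than in bladder and 9 of 10 higher than in intestine, and the cardiomyocyte markers (10 and 8 of the 10 tested); their part was not tested. By limma 0 genes were higher in bladder than in both other tissues (10.3% of all genes tested), 3 reached an unadjusted p under 0.05 in both comparisons (Kcnc2, Kcnd1 and Kcne1), and no other tool was run. For the 23 genes described singly below, values are normalized counts, which are reads scaled by a constant per library and are not corrected for gene length.

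**Figure D2:**
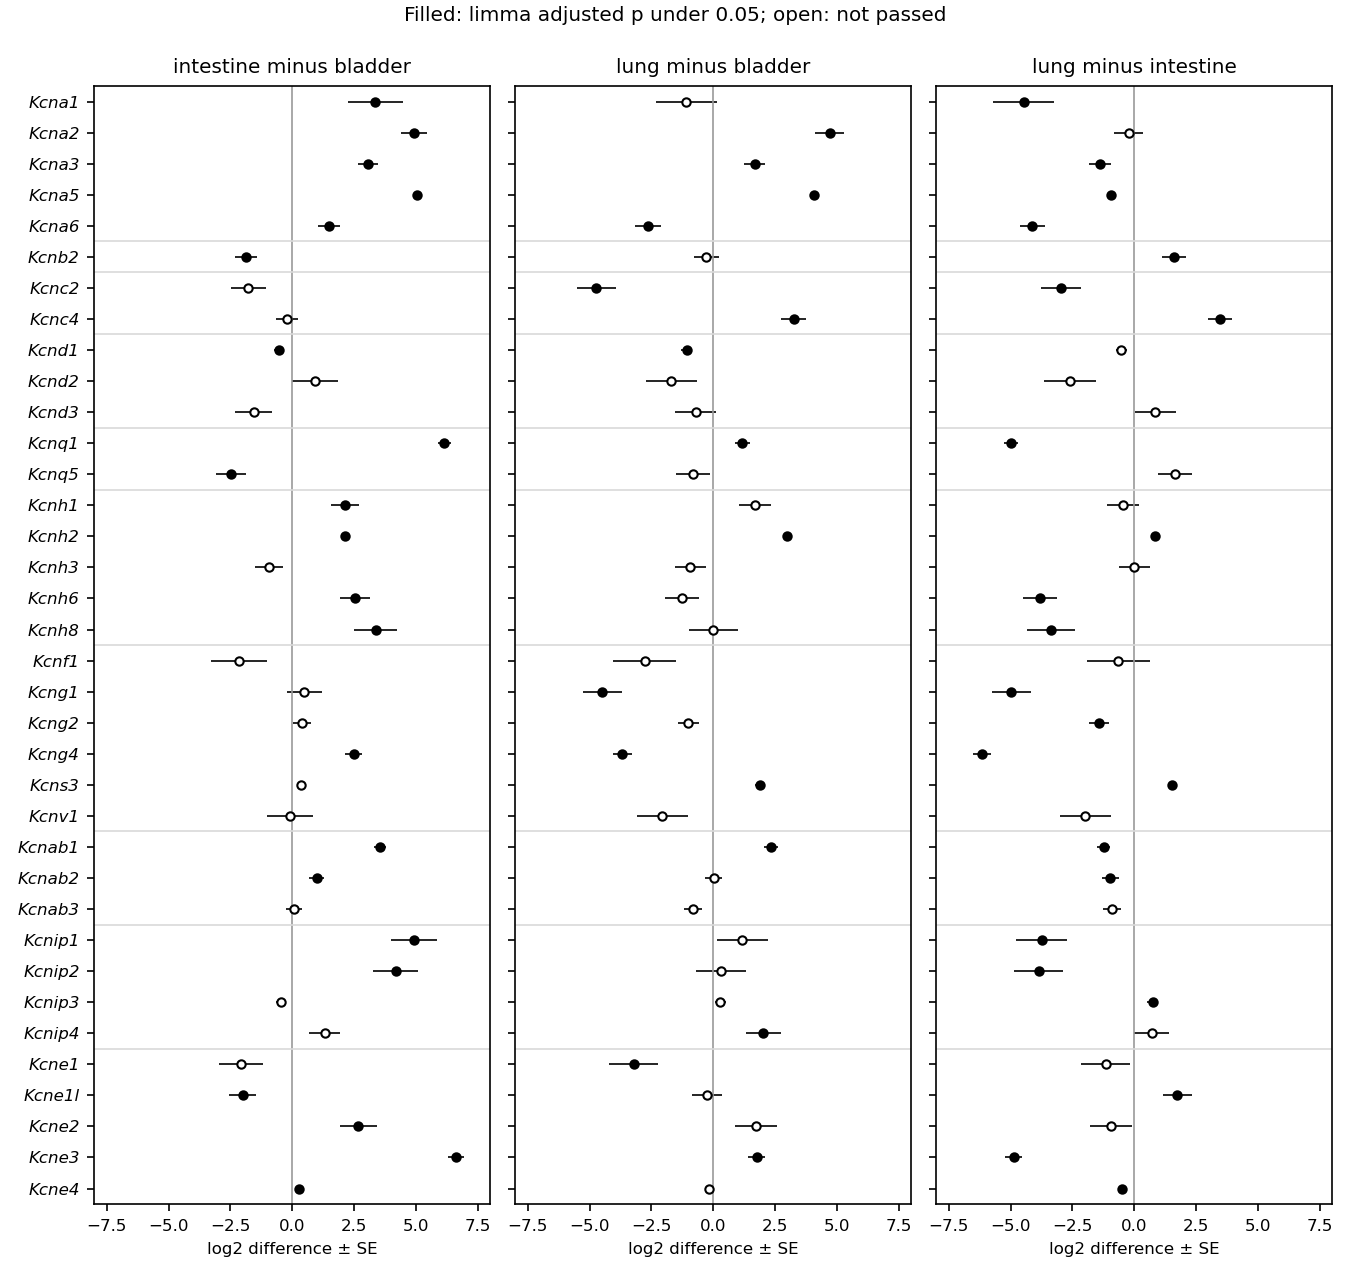
Log2 difference with its standard error for 36 of the 40 genes tested, in 3 panels (intestine minus bladder, lung minus bladder, lung minus intestine), where filled points have an adjusted p under 0.05. Of the filled points 18 of 22 lie above 0 for intestine minus bladder and 17 of 23 below 0 for lung minus intestine.

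The Kv1 subunits, homologues of the fly Shaker channel, were higher in intestine than in bladder for 5 of the 5 tested, and Kcna5, Kcna2 and Kcna3 were also higher in lung than in bladder. Kcna5 (ENSMUSG00000045534, chr6:126509514-126512375, mm39) had 1732 and 1390 normalized counts in lung, 3206, 2810 and 2938 in intestine and 76, 95 and 101 in bladder. All 3 tissues were separate, in the order intestine, lung, bladder. The log2 difference was 5.03 (SE 0.13, limma adjusted p = 6.54e-08) for intestine minus bladder, 4.09 (SE 0.15, adjusted p = 2.19e-07) for lung minus bladder and -0.94 (SE 0.15, adjusted p = 0.000934) for lung minus intestine, which put its mean 32.9-fold higher in intestine and 17.2-fold higher in lung than in bladder. Of 8 mural cell markers, 6 were higher than bladder in intestine (1 lower) and 6 in lung (0 lower). Of 11 smooth muscle markers, 7 were higher than bladder in intestine (2 lower) and 7 in lung (0 lower). For lung minus intestine, where Kcna5 was lower, 1 mural cell marker was lower and 0 higher. Of the smooth muscle markers 0 were lower and 2 higher in that pair. The part of these cells in the Kcna5 values was not tested. Kcna5 also reached 1.22 reads per nt of exon in its densest library, the highest density of the 47 genes. Genes with 1 read per nt or more on average over the 8 libraries numbered 339, and Kcna5 was not among them. Their median log2 difference was -0.40 in intestine minus bladder and -0.42 in lung minus bladder.

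Kcna2 (ENSMUSG00000040724, chr3:107008462-107022321), a low-threshold channel best known from axons, had 586 and 286 normalized counts in lung, 502, 439 and 492 in intestine and 25, 5 and 24 in bladder. Lung and intestine overlapped and both stood clear of bladder. On the log2 scale the difference was 4.92 (SE 0.53, limma adjusted p = 5.27e-05) for intestine minus bladder and 4.70 (SE 0.59, adjusted p = 0.000232) for lung minus bladder; without bladder library 2, which had the lowest value, these were 4.23 and 4.01. For lung minus intestine it was -0.22 (adjusted p = 0.799). Kcna3, the delayed rectifier known from lymphocytes, had 28 and 29 normalized counts in lung, 59, 100 and 75 in intestine and 5, 11 and 10 in bladder. No tissue overlapped another. The T cell receptor gene Trac, one of the leukocyte markers, had the same order, with means of 125 in lung, 280 in intestine and 11.3 in bladder. Of the 14 leukocyte markers, 9 exceeded bladder in intestine and 3 were lower there, 7 exceeded bladder in lung and 3 were lower, and 7 were lower in lung than in intestine and 1 higher; their part in the Kcna3 values was not tested. Kcna3 was higher in intestine than in bladder (log2 3.06, limma adjusted p = 0.000148) and higher in lung than in bladder (1.67, adjusted p = 0.013), the second call being lost without lung library 2 (adjusted p = 0.0534). For lung minus intestine the difference of -1.39 passed (adjusted p = 0.031). That call was lost without lung library 1 or 2 or intestine library 2 or 3. It was also lost under quantile normalization and with a replicate block (adjusted p = 0.0557 to 0.392).

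Kcna1 and Kcna6, neighbours of Kcna5 on chromosome 6, were low. Kcna1, the channel mutated in human episodic ataxia, had 7 and 0 normalized counts in lung, 66, 63 and 55 in intestine and 19, 10 and 0 in bladder. Intestine stood above both other tissues, which overlapped, but the calls (intestine minus bladder 3.36, limma adjusted p = 0.0287; lung minus intestine -4.46, adjusted p = 0.0181) were each lost without any 1 of the 3 intestine libraries, and also without bladder library 3 for the first and lung library 2 for the second (adjusted p = 0.0528 to 0.145 over these). Kcna6 had 2 and 6 normalized counts in lung, 56, 77 and 114 in intestine and 39, 24 and 22 in bladder. Lung lay lowest and the tissues did not overlap. Kcna6 was lower in lung than in bladder (-2.63, limma adjusted p = 0.00283; -2.02 without lung library 1 and -3.24 without lung library 2) and lower in lung than in intestine (-4.13, adjusted p = 0.000203; -3.51 and -4.74 without those libraries). The difference of 1.49 for intestine minus bladder passed (adjusted p = 0.0211). That call was lost without intestine library 2 or 3 or bladder library 2 or 3 (adjusted p = 0.0582 to 0.0856). Under quantile normalization it was lost as well (adjusted p = 0.241).

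Kcnab1 (ENSMUSG00000027827, chr3:64856617-65285644), which encodes the Kv beta 1 subunit that speeds the inactivation of Kv1 channels, had 1375 and 643 normalized counts in lung, 2582, 2010 and 2095 in intestine and 204, 159 and 202 in bladder. The order of tissues was that of Kcna5, without overlap. The difference came to a log2 value of 3.56 (SE 0.25, limma adjusted p = 3.71e-06) for intestine minus bladder, 2.32 (SE 0.28, adjusted p = 0.000163) for lung minus bladder and -1.24 (SE 0.28, adjusted p = 0.00649) for lung minus intestine. Lung library 1 held more than lung library 2. The other Kv beta genes were below 110 normalized counts in every library. Kcnab2 was higher in intestine than in bladder (0.99, adjusted p = 0.0208) and lower in lung than in intestine (-0.97, adjusted p = 0.0471). The first call was lost without intestine library 1 or 2 or bladder library 3 (adjusted p = 0.0674 to 0.0726). Under quantile normalization it was lost as well (adjusted p = 0.698). The second call was lost without lung library 1, any 1 intestine library or bladder library 2. It was also lost under quantile normalization, with equal totals or the deposited scaling undone, in a fit of those tissues alone and with a replicate block. Over these last alternatives its adjusted p was 0.0505 to 0.767. Kcnab3 did not pass in any pair.

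**Figure D3:**
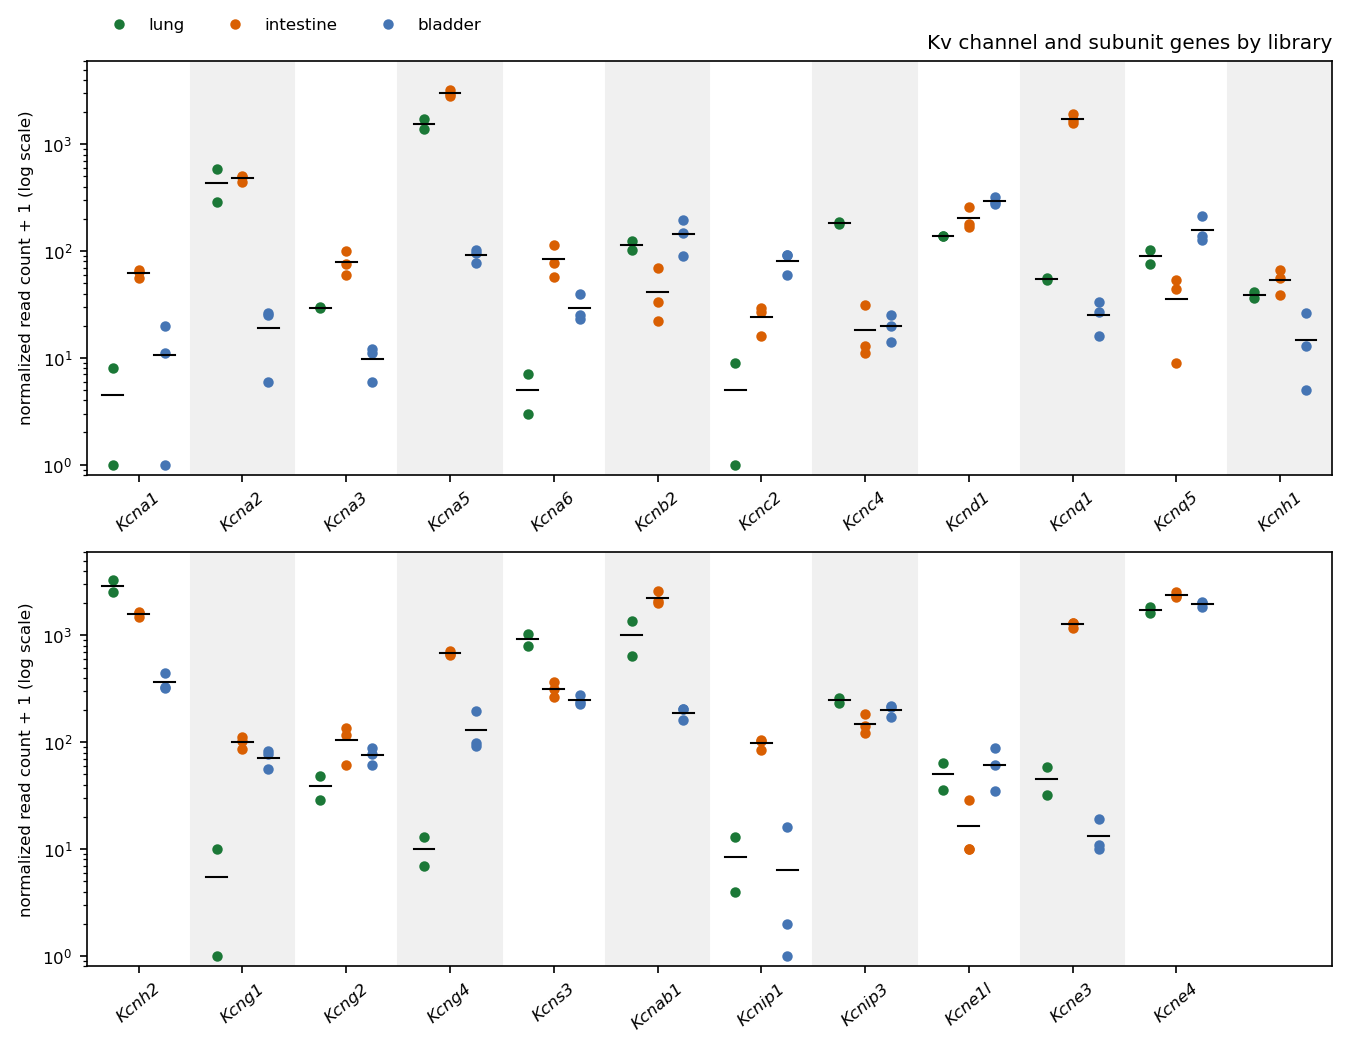
Normalized count + 1 per library (log axis) of the 23 genes described singly, with lung, intestine and bladder from left to right in each panel; points are libraries and bars are means. Kcna5, Kcnq1 and Kcne3 stand highest in intestine, Kcnh2, Kcns3 and Kcnc4 highest in lung, and Kcne4 lies between 1613 and 2536 in every library.

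Kv2 channels carry slow delayed rectifier current and bind silent subunits. Kcnb2 had 124 and 101 normalized counts in lung, 69, 21 and 32 in intestine and 147, 88 and 194 in bladder. It was lower in intestine than in bladder (-1.89, limma adjusted p = 0.00607) and higher in lung than in intestine (1.61, adjusted p = 0.0301), the second call being lost without lung library 1 or 2 or intestine library 2 or 3 (adjusted p = 0.0728 to 0.102). The summed fibroblast and urothelial markers were highest in bladder. In all, 9 of 9 fibroblast markers were lower than bladder in lung and 9 of 9 in intestine, as were 8 and 7 of the 8 urothelial markers, and their part in the values of Kcnb2 and of the other genes lower in lung or in intestine than in bladder (Kcnc2, Kcnd1, Kcnq5 and Kcne1l among them) was not tested.

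Silent subunits, which alter Kv2 channels, differed in where they were found. Kcns3 (ENSMUSG00000043673, chr12:11140203-11201057) was highest in lung, with 1037 and 796 normalized counts, against 265, 315 and 364 in intestine and 228, 235 and 273 in bladder. Lung stood apart and the other tissues overlapped. On the log2 scale the difference was 1.89 (SE 0.18, limma adjusted p = 4.41e-05) for lung minus bladder and 1.54 (SE 0.18, adjusted p = 0.00015) for lung minus intestine, and the difference between intestine and bladder did not pass (0.35, adjusted p = 0.0996).

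Kcng4 (ENSMUSG00000045246, chr8:120350593-120362419), another Kv2 modifier, had 6 and 12 normalized counts in lung, 673, 650 and 713 in intestine and 197, 98 and 91 in bladder. The tissues did not overlap, and in lung, where 3 reads come to 2.53, the gene was near the limit of detection. The difference came to a log2 value of 2.48 (SE 0.34, limma adjusted p = 0.000233) for intestine minus bladder, -3.67 (SE 0.38, adjusted p = 6.69e-05) for lung minus bladder and -6.15 (SE 0.38, adjusted p = 2.4e-06) for lung minus intestine, the last being 75.4-fold lower in mean. Kcng1 had 9 and 0 normalized counts in lung, 85, 111 and 101 in intestine and 76, 55 and 81 in bladder. Lung was low and intestine lay just above bladder. Kcng1 was lower in lung than in bladder (-4.48, limma adjusted p = 0.00164; -6.14 without lung library 1 and -2.82 without lung library 2) and lower in lung than in intestine (-4.97, adjusted p = 0.00092; -6.64 and -3.31 without those libraries), while intestine minus bladder was 0.49 (adjusted p = 0.588). Kcng2 had 47 and 28 normalized counts in lung, 60, 135 and 117 in intestine and 60, 76 and 88 in bladder. It passed for lung minus intestine alone (-1.41, adjusted p = 0.0227), and not without lung library 2 or intestine library 2 or 3. That call was also lost under quantile normalization and with a replicate block (adjusted p = 0.058 to 0.284). Kcnf1 and Kcnv1 did not pass in any pair.

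Kv3 channels open only at strong depolarisation and close fast. Kcnc4 (ENSMUSG00000027895, chr3:107345619-107366868), whose channel inactivates fast, had 177 and 186 normalized counts in lung, 30, 10 and 12 in intestine and 13, 24 and 19 in bladder. Lung stood apart and the other tissues overlapped. The log2 difference was 3.25 (SE 0.50, limma adjusted p = 0.000781) for lung minus bladder and 3.47 (SE 0.50, adjusted p = 0.00053) for lung minus intestine, with means 9.72-fold and 10.5-fold higher in lung. Kcnc2 had 8 and 0 normalized counts in lung, 28, 26 and 15 in intestine and 91, 59 and 90 in bladder. No tissue overlapped another. Kcnc2 was lower in lung than in bladder (-4.73, limma adjusted p = 0.00133; -6.31 without lung library 1 and -3.14 without lung library 2) and lower in lung than in intestine (-2.95, adjusted p = 0.0166), a call lost without lung library 2 or intestine library 1 or 2 (adjusted p = 0.0563 to 0.0792). The difference of -1.78 between intestine and bladder did not pass (adjusted p = 0.064).

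Kv4 channels carry transient A-type current and work with KChIPs. Kcnd1 (ENSMUSG00000009731, chrX:7688528-7704519) had 138 and 138 normalized counts in lung, 180, 168 and 258 in intestine and 285, 319 and 274 in bladder. Bladder was highest without overlap, as was the summed level of the fibroblast and of the urothelial markers. On the log2 scale the difference was -1.08 (SE 0.21, limma adjusted p = 0.00316) for lung minus bladder. For intestine minus bladder it was -0.56 (adjusted p = 0.0344), a call lost when any 1 bladder library or intestine library 1 or 2 was left out (adjusted p = 0.0605 to 0.122) and with the deposited scaling undone (-0.16, adjusted p = 0.473). Kcnd2 and Kcnd3 did not pass in any pair. In Kcnd3 lung library 1 had 109 normalized counts and lung library 2 had 18.

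Of the KChIPs, calcium-binding proteins that raise Kv4 current, Kcnip3 had the highest values. It also encodes the transcriptional repressor DREAM. Kcnip3 had 231 and 259 normalized counts in lung, 120, 142 and 181 in intestine and 213, 170 and 219 in bladder. Lung exceeded every other library. It was higher in lung than in intestine (0.74, limma adjusted p = 0.026), but not without lung library 2 or intestine library 1 or 2 (adjusted p = 0.0703 to 0.108). Kcnip1 had 12 and 3 normalized counts in lung, 102, 83 and 104 in intestine and 15, 0 and 1 in bladder. It was higher in intestine than in bladder (4.93, limma adjusted p = 0.00163; 6.10 without bladder library 1 and 4.10 without bladder library 2) and lower in lung than in intestine (-3.75, adjusted p = 0.0181), the second call being lost without lung library 2 or intestine library 1 or 3 (adjusted p = 0.0562 to 0.124). Kcnmb1, a subunit of calcium-activated potassium channels, overlaps Kcnip1 on the other strand. Its means were 2548.5 in lung, 1484 in intestine and 197 in bladder, while Kcnip1 was highest in intestine. The part of Kcnmb1 reads in the Kcnip1 values was not tested. Kcnip2 was higher in intestine than in bladder (4.18, adjusted p = 0.00345), with no intestine library above 47 normalized counts (4.94 without bladder library 2 and 3.54 without bladder library 3), and lower in lung than in intestine (-3.86, adjusted p = 0.0134), though not without lung library 1 (adjusted p = 0.0898). Kcnip4 was higher in lung than in bladder (2.03, adjusted p = 0.0442), a call lost without any 1 of 6 of the 8 libraries (adjusted p = 0.0643 to 0.237), and the difference was 2.65 without lung library 2.

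Among the Kv7 genes, Kcnq1 set intestine apart from both other tissues. Kcnq1 (ENSMUSG00000009545, chr7:142660099-142980779), a channel of heart muscle and of secreting epithelia, had 52 and 55 normalized counts in lung, 1564, 1701 and 1912 in intestine and 32, 15 and 26 in bladder. No tissue overlapped another. The difference came to a log2 value of 6.15 (SE 0.27, limma adjusted p = 3.82e-07) for intestine minus bladder and -4.98 (SE 0.30, adjusted p = 2.13e-06) for lung minus intestine, so that the intestine mean was 70.9-fold above bladder. For lung minus bladder it was 1.17 (adjusted p = 0.0121), which did not pass in a fit of those tissues alone (adjusted p = 0.0706). The antisense RNA Kcnq1ot1, which lies within Kcnq1 on the other strand, so that reads of both cannot be told apart by a kit that does not mark strand, had 318 and 304 normalized counts in lung, 323, 502 and 484 in intestine and 429, 552 and 396 in bladder and did not pass in any pair (adjusted p = 0.0713 to 0.735).

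Kcne3 (ENSMUSG00000035165, chr7:99825709-99834076), the KCNE subunit that holds KCNQ1 channels open in gut epithelium, showed the same order of tissues as Kcnq1. It had 31 and 57 normalized counts in lung, 1307, 1178 and 1318 in intestine and 10, 9 and 18 in bladder, without overlap. The log2 difference was 6.63 (SE 0.32, limma adjusted p = 5.87e-07) for intestine minus bladder, 1.75 (SE 0.36, adjusted p = 0.00375) for lung minus bladder and -4.88 (SE 0.36, adjusted p = 7.17e-06) for lung minus intestine, and the intestine mean was 103-fold above bladder. Epithelial and stomach gland markers moved with both genes. In intestine minus bladder 9 of 10 general epithelial markers, 8 of 8 stomach gland markers, 8 of 9 intestinal epithelial markers and 14 of 14 enteric neuron markers were higher. Atp4a, the proton pump of the acid-secreting parietal cell, averaged 2.5 in lung, 908 in intestine and 0.667 in bladder. The part of these cells in the Kcnq1 and Kcne3 values was not tested. Between lung and bladder 9 of 10 general epithelial markers were lower in lung, while Kcnq1 and Kcne3 were higher there; of the stomach gland markers 3 were higher in lung and 2 lower.

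**Figure D4:**
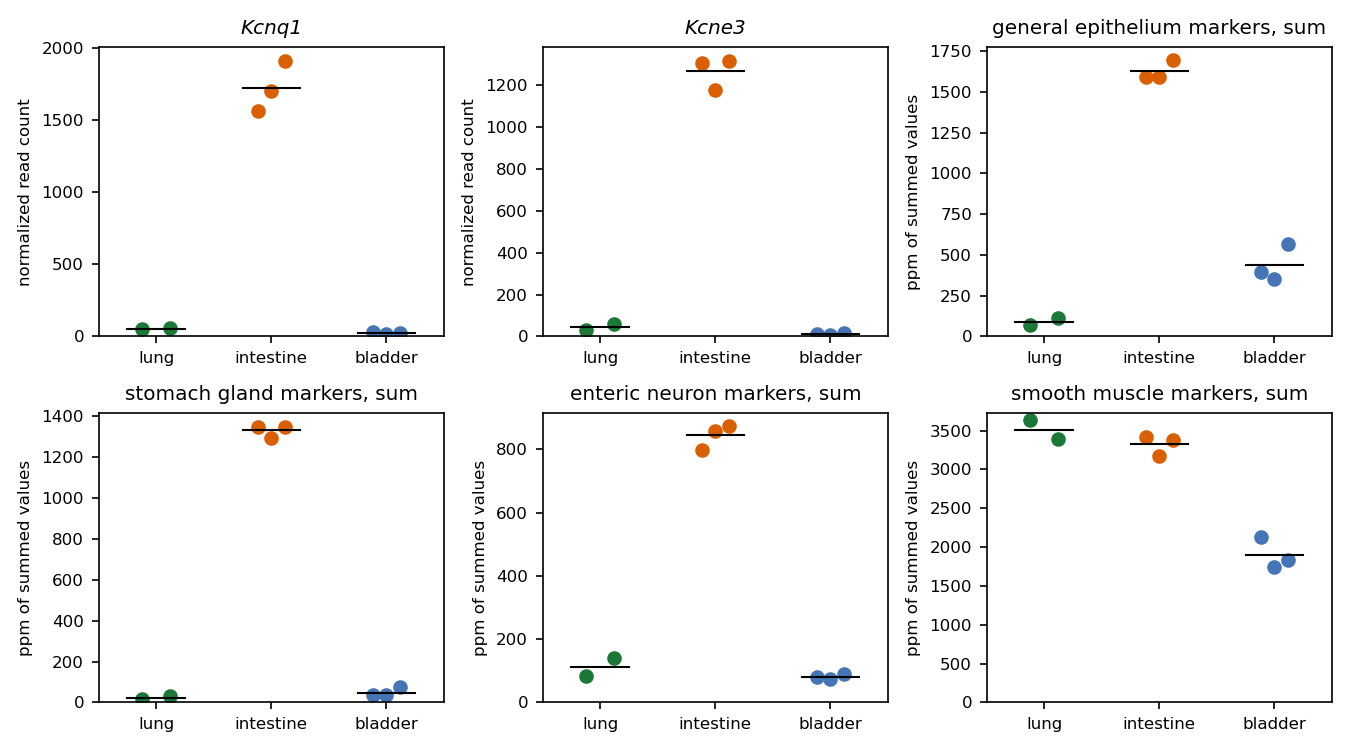
Normalized counts of Kcnq1 and Kcne3 and summed levels (ppm of normalized counts) of general epithelial, stomach gland, enteric neuron and smooth muscle markers, per library, with lung, intestine and bladder from left to right. Kcnq1, Kcne3, epithelial, stomach gland and enteric neuron markers are all highest in intestine, while smooth muscle markers are at 3393 to 3633 ppm in lung and 3172 to 3420 ppm in intestine.

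Kcnq5, a Kv7 channel of muscle and brain, had 102 and 74 normalized counts in lung, 8, 43 and 53 in intestine and 136, 125 and 212 in bladder. It was lower in intestine than in bladder (-2.48, limma adjusted p = 0.00748; -1.66 without intestine library 1), and the differences of -0.81 for lung minus bladder and 1.66 for lung minus intestine did not pass (adjusted p = 0.381 and 0.082).

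In the EAG, ERG and ELK branch Kcnh2 was highest in lung. Kcnh2 (ENSMUSG00000038319, chr5:24524587-24556602) had 3289 and 2522 normalized counts in lung, 1646, 1495 and 1616 in intestine and 330, 319 and 441 in bladder. The tissues did not overlap, in the order lung, intestine, bladder. The difference came to a log2 value of 3.00 (SE 0.16, limma adjusted p = 1.43e-06) for lung minus bladder, 2.14 (SE 0.14, adjusted p = 2.78e-06) for intestine minus bladder and 0.86 (SE 0.16, adjusted p = 0.00221) for lung minus intestine, with lung 8.00-fold above bladder and 1.83-fold above intestine in mean. Kcnh2 is also a gene of heart muscle, and 10 of the 10 cardiomyocyte markers tested were higher in lung than in bladder and 8 of 10 higher in lung than in intestine. Between intestine and bladder, where Kcnh2 also differed, 3 of the 10 were higher in intestine and 2 lower. The cardiomyocyte sums of those tissues overlapped (51.7 to 65.4 against 45.8 to 58.3 ppm). The part of cardiomyocytes in the Kcnh2 values was not tested.

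The remaining genes of this branch were low. Kcnh1, the EAG channel, had 40 and 35 normalized counts in lung, 38, 66 and 55 in intestine and 25, 4 and 12 in bladder. Lung and intestine overlapped, above bladder. It was higher in intestine than in bladder (2.15, limma adjusted p = 0.0104; 1.52 without bladder library 2), a call lost under quantile normalization (adjusted p = 0.0762), and lung minus bladder was 1.69 (adjusted p = 0.0591). Kcnh6 and Kcnh8, each below 30 normalized counts in every library, passed for intestine minus bladder with higher values in intestine (adjusted p = 0.00607 and 0.00995), and both calls were lost under quantile normalization (adjusted p = 0.0556 and 0.0639). For Kcnh8 the log2 difference, intestine minus bladder, was 3.37, and 4.55 without intestine library 2. Both were also lower in lung than in intestine (adjusted p = 0.00177 and 0.023). For Kcnh6 the difference was -3.81 (-3.02 without lung library 1 and -4.60 without lung library 2). The call for Kcnh8 was lost without either lung library. It was also lost under quantile normalization and in a fit of those tissues alone (adjusted p = 0.0553 to 0.105). Kcnh3 did not pass in any pair.

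The KCNE genes encode small membrane proteins that join pore-forming subunits. Kcne4 (ENSMUSG00000047330, chr1:78794475-78797745), which modulates Kv7 and Kv1 channels, was abundant everywhere, with 1827 and 1613 normalized counts in lung, 2536, 2346 and 2300 in intestine and 2035, 2017 and 1831 in bladder. Per length it was at 58.4 ± 4.28 RPKM in lung (SD, n = 2), 78.3 ± 3.92 RPKM in intestine and 60.2 ± 2.5 RPKM in bladder (SD, n = 3 each). Intestine stood slightly above lung and bladder, and the difference between lung and bladder did not pass (-0.19, limma adjusted p = 0.108). That difference turned to 0.32 (adjusted p = 0.0198) with the deposited scaling undone. The log2 difference was 0.29 (SE 0.08, adjusted p = 0.011) for intestine minus bladder, which was lost without the intensity trend (adjusted p = 0.0503), and -0.48 (SE 0.09, adjusted p = 0.00188) for lung minus intestine. In bladder Kcne4 exceeded the summed level of all 27 pore-forming genes per length (24.9 to 30.0 RPKM). Kcne1l had 35 and 63 normalized counts in lung, 28, 9 and 9 in intestine and 34, 88 and 60 in bladder. It was lower in intestine than in bladder (-2.01, limma adjusted p = 0.011), though not without intestine library 3 (adjusted p = 0.0502), and higher in lung than in intestine (1.75, adjusted p = 0.0438), though not without lung library 2, intestine library 2 or 3 or bladder library 3 (adjusted p = 0.0631 to 0.223). Kcne1, a partner of KCNQ1 in the heart, and Kcne2, its partner in the parietal cell, were at or below 15 normalized counts in every library. Kcne1 was lower in lung than in bladder (-3.22, limma adjusted p = 0.0287), though not without either lung library or bladder library 1 (adjusted p = 0.0622 to 0.0975). Kcne2 was higher in intestine than in bladder (2.68, adjusted p = 0.0151), though not without bladder library 1 or 2 (adjusted p = 0.055 to 0.058). Nor did Kcne2 pass under quantile normalization (adjusted p = 0.146), and the difference was 3.54 without bladder library 3.

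Another 21 genes were low, and the 14 of them that were tested had means of at most 63.5 normalized counts in lung, 99.3 in intestine and 77.3 in bladder. Among others, Kcna4, Kcnc1, Kcne1, Kcnh5, Kcnh8, Kcns1 and Kcnv2 were at 0 in both lung libraries, and Kcna4, Kcnh8 and Kcns1 in all 3 bladder libraries, where a count of 0 allows up to 2.53 (lung) and 3.62 (bladder) normalized counts. None of the 47 genes was at 0 in all intestine libraries.

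Of 26 genes for proteins that bind or regulate voltage-gated potassium channels, 24 were tested. For intestine minus bladder 6 were higher (25%, against 28.7% of all genes tested) and 7 lower (29.2%, against 23.3%), and with the deposited scaling undone these were 12 and 3. For lung minus bladder 2 were higher (8.33%, against 19.2% of all genes) and 13 lower (54.2%, against 21.8%), or 8 and 5 with scaling undone. For lung minus intestine 4 were higher (16.7%, against 15.9% of all genes) and 8 lower (33.3%, against 23.6%), or 7 and 8 with scaling undone. Their median log2 differences were -0.12, -0.40 and -0.21 in that order of pairs. Sgk1, a kinase that raises Kv channel density at the membrane, was lower in lung than in bladder (-0.80, limma adjusted p = 0.000322) and lower in intestine than in bladder (-1.03, adjusted p = 1.98e-05). Dlg1, a scaffold of Kv1 channels, was lower in lung than in bladder (-1.22, adjusted p = 7.44e-05) and lower in lung than in intestine (-1.33, adjusted p = 4.14e-05). Snap25, a synaptic protein and one of the enteric neuron markers, averaged 3 in lung and 594 in intestine and was 0 in every bladder library, and the Kv4 partner Dpp6 averaged 62 in intestine and 6.67 in bladder and was 0 in both lung libraries.

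Among 35 potassium channel genes of other classes (inward rectifier, two-pore, calcium-activated and sodium-activated), 28 were tested. For intestine minus bladder 15 were higher (53.6%, against 28.7% of all genes tested) and 5 lower (17.9%, against 23.3%). For lung minus bladder 8 were higher (28.6%, against 19.2% of all genes) and 10 lower (35.7%, against 21.8%), and for lung minus intestine 4 were higher (14.3%, against 15.9%) and 12 lower (42.9%, against 23.6%). Kcnn3, a small-conductance calcium-activated channel, averaged 41.5 ± 7.78 normalized counts in lung (SD, n = 2), 1270 ± 215 in intestine and 2079 ± 129 in bladder (SD, n = 3 each), and was lower in lung than in bladder (-5.62, limma adjusted p = 6.65e-08). The two-pore channel Kcnk3 averaged 3549.5 in lung, 614 in intestine and 229 in bladder, and was higher in lung than in bladder (3.96, adjusted p = 4.83e-07). In bladder the mean of Kcnn3 stood above that of every voltage-gated gene in normalized counts, which are not corrected for length. Its bladder libraries overlapped those of Kcne4 (1983, 2225 and 2028 against 2035, 2017 and 1831).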

How the data were processed

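The genes and lists were chosen with earlier results of these data known. The deposited table holds whole-number scores: read counts that the authors scaled by a constant per library and rounded, as the spacing of the values shows. Genome build mm39 and, with no role or order, DESeq2 1.36.0, featureCounts 2.0.4, STAR 2.7.10a, Trimmomatic 0.39 and Picard 3.0.0 are listed per the submitters' processing notes. RNA (at most 10 ng) was amplified with a kit that keeps no strand, per the labels' protocols, so overlapping genes share reads. Coordinates are those of the table (mm39).

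The value of 1 read (0.822 to 1.27 by library) was estimated from that spacing and gave reconstructed reads, depths and the 3-read level, which covers counting error only. RPKM used exon lengths of GENCODE M21, which held all 47 genes. Because the values are not raw counts, limma 3.58.1 (R 4.3.3) with an intensity trend was fitted to log2(value + 1) of all 8 libraries, with a mean per tissue, and 18097 genes were tested (3552 were not). A log2 difference on this scale understates the change of low genes. The method was tested on simulated data. Genes described singly had an adjusted p under 0.05, an absolute log2 difference of at least 1 and a mean of at least 50 in the higher tissue in some pair, or a mean of at least 200 in any tissue; some genes that met this rule are not reported here. From the 2 lists of partners and of other potassium channels, up to 4 genes per pair with the smallest p qualified, and some of them are described. Alternatives were another pseudocount, filter, scaling or normalization, no trend, 2 tissues only, a replicate block and leaving out each library.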

Additional observations from a re-analysis of the deposited data

How the results depend on the processing

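Of 70 calls of single genes and pairs, 43 held under every alternative run. Quantile normalization gave 10 genes lower in intestine than in bladder, against 4, and 2 genes higher in bladder than in both other tissues, against 0 (1 with a pseudocount of 5); the genes higher in intestine than in both numbered 7 without the trend, against 11. Leaving out 1 library at a time gave 17 to 22 higher and 3 to 6 lower for intestine minus bladder, 10 to 12 higher and 5 to 8 lower for lung minus bladder, and 3 to 6 higher and 13 to 21 lower for lung minus intestine; 24 to 32 genes passed the F test, 5 to 12 were higher in intestine than in both other tissues and 0 to 1 in bladder. The lowest counts for lung minus intestine were 3 higher (without lung library 2 or intestine library 2) and 13 lower (without lung library 2 or intestine library 3). With the deposited scaling undone, partners numbered 12 higher and 3 lower for intestine minus bladder (6 and 7 otherwise), 8 and 5 for lung minus bladder (2 and 13) and 7 higher for lung minus intestine (4). Other potassium channels lower in intestine than in bladder numbered 2 with scaling undone and 9 under quantile normalization, against 5; 5 were higher in lung than in bladder at a minimum of 50, against 8; 6 to 9 were lower there with 1 library left out, against 10; and 7 were higher in lung than in intestine under quantile normalization, against 4. For lung minus bladder Kcne4 was at 0.32 with scaling undone, against -0.19. With scaling undone, depth was not corrected, and the median of all genes tested in that pair was 0.48, against 0.00. For the other alternatives the cause was not tested.

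Deviations of same-numbered libraries correlated at -0.03 to 0.06 over 7 pairs, and those of differently numbered libraries at -0.07 to 0.07 over 14 pairs. With 2 libraries in lung, their deviations mirror each other, so the correlations with lung come in pairs of opposite sign. The labels do not say what the numbers mean, and these correlations cannot show whether the libraries are paired. With the numbers as a replicate block, 22 genes were higher and 4 lower for intestine minus bladder. Lung has 2 libraries, and values near 3 reads carry little information.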

Other observations

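Several of these genes lie close together in mm39, and neighbours did not always share their tissue. On chromosome 3, Kcna3 and Kcna2 are 63.1 kb apart and both were higher in lung and in intestine than in bladder, while Kcnc4, 323 kb from Kcna2, was higher in lung than in both other tissues. On chromosome 6, Kcna5, Kcna1 and Kcna6 lie within gaps of 105 and 61.9 kb, and all were higher in intestine than in bladder, whereas for lung minus bladder Kcna5 was higher, Kcna6 lower and Kcna1 did not pass. On chromosome 16, Kcne2 and Kcne1 are 47.9 kb apart and shared no call.

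The lung libraries differed from each other in these genes. Over the 16 genes with a lung mean of at least 50 normalized counts, the ratio of lung library 1 to lung library 2 had a median of 1.27 and was above 1 for 11, from 0.609 for Kcnab2 to 6.06 for Kcnd3. Over 12331 genes of all kinds at that level the median ratio was 0.976, it was above 1 for 5768, and its 5th to 95th percentile ran from 0.589 to 1.83. Above that range were Kcna2 (2.05), Kcnab1 (2.14) and Kcnd3.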
